A study of Mus musculus with 2 samples.

Results

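MHC class I presentation was followed here through 10 genes, B2m, H2-D1, H2-K1, H2-Q7, H2-T22, H2-T23, Tap1, Tapbp, Psmb8 and Psmb9, out of 31053 genes measured. The genes were taken by name, and all 10 were found in both libraries. Single-cell RNA-seq was done on live CD45+EpCAM-MHC-II- cells sorted from the ear epidermis of WT female FVB/NJ mice aged 8 weeks, 7 d after an intradermal injection of either isotype control antibody or antibody to Skint1. Each treatment was represented by 1 library, with n given as 1 mouse per group. The antibody targets Skint1, the keratinocyte protein that selects dendritic epidermal T cells (DETCs) in the thymus, and the treatments were compared to ask what DETCs lose when Skint1 is masked in adult skin. FVB mice carry the q haplotype of the mouse MHC (H-2q), whereas counting was done against the C57BL/6J reference (H-2b).

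A class I molecule is a heavy chain (H2-K1, H2-D1 and the nonclassical H2-Q7, H2-T22 and H2-T23) paired with β2-microglobulin, the product of B2m. Peptides are cut by the proteasome, in which the inducible subunits encoded by Psmb8 and Psmb9 replace constitutive ones. They are carried into the endoplasmic reticulum by the transporter of which Tap1 is one chain and are loaded with the help of tapasin, the product of Tapbp. DETCs, the γδ T cells of mouse epidermis, carry NK-type receptors that read class I or class I-like ligands, and interferons and NF-κB are known to raise transcription of most of these genes.

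B2m lies on chromosome 2 (122147686 to 122153083, plus strand, GRCm38, GENCODE vM21). The other 9 genes lie in the MHC on chromosome 17, from the start of Tapbp at 33915899 to the end of H2-T22 at 36042747. Tap1 starts at 34187553 on the plus strand, inside the annotated span of Psmb9 (34181987 to 34187764, minus strand), so the pair overlap head to head. The 10x 3′ method reads one end of each transcript and each unique molecular identifier (UMI) stands for 1 mRNA molecule, so levels were not divided by gene length. The heavy chain genes are near-identical copies over long stretches, and how the counting split reads among them was not tested.

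Upstream sequence was searched for motifs by exact letters, so a near match was not counted. RefSeq promoters (GRCm38.p6, C57BL/6J, 32851 windows) held all 10 members, and only the 250 bases before each start were searched, on both strands. The κB-type motif GGGGATTCC occurred in 0.213% of all windows and in 3 of the 10 members, H2-K1, H2-D1 and H2-Q7. These 3 also held the interferon-type motif GAANNGAAA (6.31% of windows) close behind it. The related motif GAAANNGAA (7.13% of windows) was found in B2m, H2-T22 and H2-T23. None of these 3 motifs was found in the windows of Tap1, Tapbp, Psmb8 or Psmb9, which says only that these letters were not there. H2-K1, H2-D1 and H2-Q7 are related copies, so a motif that they share is not 3 separate finds. CCAAT was searched too and occurred in 33.8% of windows and in 9 of the 10 members, all but Psmb8. The sequences below run 5′ to 3′ on the strand of the gene, and capitals mark the κB-type and interferon-type motifs.
H2-K1: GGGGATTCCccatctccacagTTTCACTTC
H2-D1: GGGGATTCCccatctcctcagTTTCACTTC
H2-Q7: GGGGATTCCcatctccccagTTTCACTTC
B2m: ataagaacatGAAACTGAAaatgggaaag
H2-T22: ttggcttagtTTCACTTTCgaatccccaa
H2-T23: tcctactgctTTCTCTTTCataaagacac
The H2-K1 stretch (chr17:34000429-34000458, minus strand) and the H2-D1 stretch (chr17:35262923-35262952, plus strand) matched at 29 of 30 bases. The H2-Q7 stretch (chr17:35439022-35439050, plus strand) was 29 bases long. The B2m stretch lay at chr2:122147538-122147566 on the plus strand. The H2-T22 and H2-T23 stretches lay at chr17:36042914-36042942 and chr17:36032806-36032834, both on the minus strand. The H2-D1 and H2-T23 stretches also fall within the first exon of a GENCODE transcript that starts further upstream.

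A barcode counted as a cell if it held 500 to 2500 genes and no more than 12% of its UMIs were mitochondrial, which left 4242 cells from the isotype library and 5961 from the Skint1 antibody library. DETCs were cells with at least 3 Trdc UMIs and at least 3 UMIs of CD3 genes and no Trac, Cd4, Cd8a or Cd8b1, which gave 3544 and 4945 cells. Alpha-beta T cells had at least 1 Trac UMI and no Trdv4, which gave 197 and 213. The innate lymphoid cell (ILC) gate took cells with at least 3 UMIs of Il7r, Rora and Gata3 together, at most 2 CD3 UMIs and no Trdv4, which gave 82 and 139. The last 2 gates shared 9 and 14 cells, 428 and 678 cells were in none, and 5 barcodes occurred among the cells of both libraries. Median depth per cell was 4028 and 3577 UMIs in DETCs, 3766 and 3581 in alpha-beta T cells and 4570 and 4334 in the ILC gate. Levels are UMIs per 1000000 UMIs of a class in a library (CPM), and the range in parentheses is the 95% interval from counting error alone, exact Poisson for a level, conditional binomial for a log2 ratio and Clopper-Pearson for a share. No test between treatments was possible with 1 library each, so that the effect of a treatment cannot be told apart from that of its library.

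Each gate was checked against genes that it did not use. DETCs held the Vδ1 gene Trdv4 of the DETC receptor, whose absence the other gates required, at 978 and 789 CPM (isotype, then Skint1 antibody, as in all pairs below). Cd5, Cd6 and Cd28 of conventional T cells stood at 91.2 and 81.3, 149 and 110, and 151 and 171 CPM in alpha-beta T cells, and at under 3 CPM in DETCs. The TCRβ constant genes Trbc1 and Trbc2, checked with them, did not separate the classes, at 1491 and 1250 and at 1097 and 979 CPM in DETCs against 1115 and 935 and 1215 and 1119 in alpha-beta T cells. In the ILC gate Trbc1 stood at 1126 and 1069 CPM and Trbc2 at 716 and 675 CPM. Cd5, Cd6 and Cd28 stood lower in that gate than in alpha-beta T cells, at 13.1 and 1.52, 18.3 and 12.1, and 20.9 and 16.7 CPM. Alpha-beta T cells still carried Fcer1g, a DETC gene, at 366 and 509 CPM, against 2372 and 2527 in DETCs. Of 5 ILC markers, Il2ra and Kit stood at 41.8 and 60.7 and at 83.6 and 111 CPM in the ILC gate, against 4.43 and 2.25 and 15.4 and 8.55 in DETCs. Il1rl1, Ncr1 and Klrb1c had 0 UMIs there after isotype and 3, 1 and 3 after Skint1 antibody. Of these 5 markers, Kit alone was higher in the ILC gate than in alpha-beta T cells in both libraries. Il2ra stood at 77.4 and 52.6 CPM in alpha-beta T cells, with intervals that overlapped those of the ILC gate. Il1rl1 was higher in alpha-beta T cells, at 33.7 and 25.1 CPM, as was Klrb1c, the latter with overlapping intervals. The ILC class is thus named by its gate only. It also held 4 and 5 of 5 keratinocyte genes, at 431 and 3999 summed CPM, against 18.8 and 30.8 in DETCs. The 5 MHC class II and Langerhans genes summed to 1290 and 2020 CPM there, against 17.4 and 15.3 in DETCs. Their part in the ILC values was tested only by leaving out barcodes that held them. The 7 immediate early genes stood at 7362 and 7330 summed CPM in DETCs, 3620 and 4627 in alpha-beta T cells and 1891 and 3180 in the ILC gate, and their part in the class differences was not tested beyond the split of DETCs given further on.

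DETCs carried less class I mRNA than alpha-beta T cells, and less than the ILC gate under the limit of 2500 genes. The 10 genes together took 3398 (3368 to 3428) and 3114 (3089 to 3140) CPM in DETCs, 8076 (7880 to 8275) and 7054 (6875 to 7236) in alpha-beta T cells, and 5100 (4877 to 5332) and 4780 (4614 to 4949) in the ILC gate. The order of the classes was thus the same in both libraries. Without the gene limit the log2 ratio of the ILC gate over DETCs fell to 0.09 and 0.06. In barcodes with 1 to 100 UMIs, which hold mostly RNA free in the suspension, the 10 genes stood at 2509 (2457 to 2562) and 2415 (2362 to 2469) CPM, below all classes. For single members this did not hold in DETCs. B2m stood at 483 and 416 CPM in those barcodes, Psmb8 at 168 and 152, Psmb9 at 57.3 and 42.1 and Tap1 at 18.9 and 22.6, close to or above the DETC levels given next. No class in these samples is known to lack these genes, so no level of pure background could be set.

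**Figure D1:**
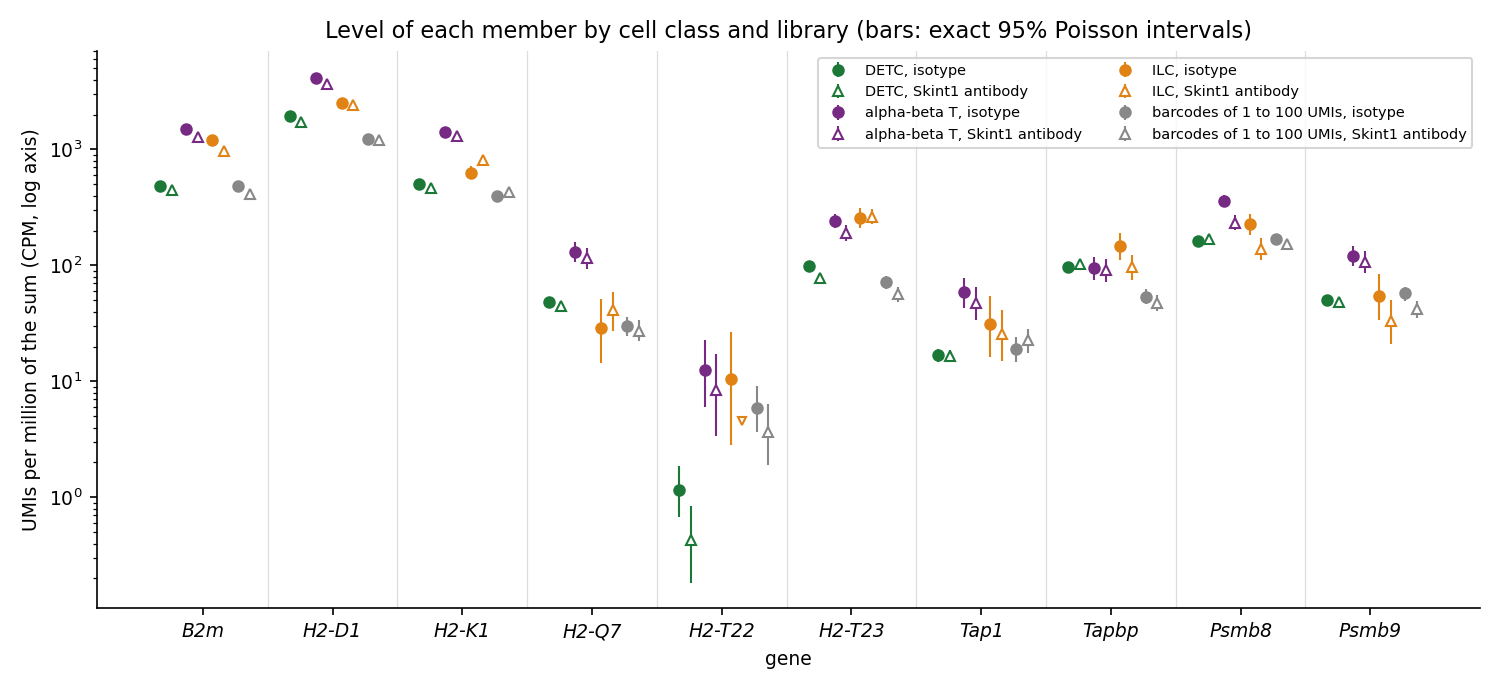
Level of each of the 10 genes in UMIs per 1000000 (log axis) by class and library, with filled circles for isotype, open triangles for Skint1 antibody and bars for exact 95% Poisson intervals. H2-D1 is highest everywhere, from 1741 to 4147 CPM in the classes, H2-T22 is lowest, and a downward triangle marks the floor of 3 counts where H2-T22 had no UMI in the ILC gate of the Skint1 antibody library.

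B2m, the shared light chain, had 488 (477 to 500) and 451 (441 to 460) CPM in DETCs. Its level was 1499 (1415 to 1586) and 1283 (1207 to 1362) CPM in alpha-beta T cells and 1217 (1109 to 1333) and 961 (888 to 1039) CPM in the ILC gate. The order was alpha-beta T, ILC, DETC in each library. The intervals of alpha-beta T cells after Skint1 antibody and of ILCs after isotype overlapped, and those of DETCs lay below all others. The isotype ILC value leaned on 1 barcode, which held 83 of the 466 B2m UMIs (17.8%) and 180 of the 227 UMIs of a list of 16 interferon-stimulated genes.

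H2-D1, a classical heavy chain, was the most abundant member, at 1935 (1913 to 1958) and 1741 (1722 to 1760) CPM in DETCs. Alpha-beta T cells held 4147 (4007 to 4291) and 3664 (3536 to 3796) CPM, and the ILC gate 2494 (2338 to 2657) and 2408 (2291 to 2529), 2 values whose intervals overlapped. H2-K1, the other classical heavy chain, stood at 500 (488 to 511) and 463 (453 to 473) CPM in DETCs, 1412 (1331 to 1497) and 1312 (1235 to 1391) in alpha-beta T cells, and 632 (555 to 717) and 810 (743 to 881) in the ILC gate. H2-K1 was thus the one classical heavy chain whose ILC level was higher after Skint1 antibody than after isotype.

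H2-T23 encodes Qa-1, the nonclassical heavy chain read by CD94/NKG2 receptors. Its DETC level was 98.6 (93.6 to 104) and 78.0 (74.1 to 82.2) CPM, whereas alpha-beta T cells held 242 (209 to 279) and 191 (163 to 223) and the ILC gate 259 (210 to 315) and 264 (226 to 306). The ILC and isotype alpha-beta T intervals overlapped, and DETCs were lowest. H2-Q7, a Qa-2 heavy chain, had 48.7 (45.2 to 52.4) and 44.3 (41.4 to 47.4) CPM in DETCs, 131 (107 to 159) and 115 (93 to 140) in alpha-beta T cells, and 28.7 (14.3 to 51.4) and 40.9 (27.0 to 59.6) in the ILC gate. DETC and ILC levels of H2-Q7 did not differ beyond their intervals. H2-T22, a ligand of some γδ receptors, was counted very rarely, with 17 and 8 UMIs in all DETCs (1.16 and 0.428 CPM), 10 and 7 UMIs in alpha-beta T cells (12.5 and 8.37 CPM), and 4 and 0 in the ILC gate, where the floor of 3 counts is 4.55 CPM. Barcodes of 1 to 100 UMIs held H2-T22 at 5.93 and 3.66 CPM, above the DETC levels. How many H2-T22 reads of H-2q mice were lost or assigned elsewhere against the H-2b reference was not tested, so these counts do not show that the gene was off.

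Of the genes that make and load peptides, Psmb8 stood at 163 (156 to 169) and 168 (162 to 174) CPM in DETCs. In alpha-beta T cells it had 357 (317 to 401) and 234 (203 to 270) CPM, and in the ILC gate 227 (182 to 280) and 140 (112 to 171), the last of which overlapped the DETC range. Psmb9 followed a similar order, with 50.5 (46.9 to 54.3) and 48.7 (45.6 to 52.0) CPM in DETCs, 121 (98.2 to 148) and 108 (86.5 to 132) in alpha-beta T cells, and 54.8 (34.0 to 83.8) and 33.4 (20.9 to 50.5) in the ILC gate. Tap1 was low throughout, at 16.8 and 16.6 CPM in DETCs, 58.7 and 47.8 in alpha-beta T cells and 31.3 and 25.8 in the ILC gate. Tapbp was the member whose levels differed least between classes, from 90.9 to 104 CPM in 5 of the 6 sums and at 146 (110 to 190) in the isotype ILC gate.

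Class levels were then compared within each library, where both sides of a ratio had the same treatment. Whether treatment acted alike on the classes was not tested. In alpha-beta T cells over DETCs, 9 of 10 members had a ratio whose interval lay above 0 in both libraries, and Tapbp was the exception. The log2 ratio of the 10 genes summed was 1.25 (1.21 to 1.29) for isotype and 1.18 (1.14 to 1.22) for Skint1 antibody, that is 2.38-fold and 2.27-fold. The median over all genes tested was -0.09 in each library. Counting genes with a mean of at least 100 CPM, 5 of the 10 could be read in each library, and of these 5 and 4 were at least 1.5-fold higher, against 11.4% and 8.8% of all genes, and 0 were lower, against 20.5% and 19.1%. Psmb8 was the member short of 1.5-fold in the Skint1 antibody library. The filter favours members that are high in one class, so the values of all members are given next.

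B2m had log2 ratios of 1.62 (1.53 to 1.71) and 1.51 (1.42 to 1.60), H2-K1 of 1.5 (1.41 to 1.59) in each library, and H2-D1 of 1.10 (1.05 to 1.15) and 1.07 (1.02 to 1.13). The ratio of H2-D1 was thus below those of B2m and H2-K1, beyond their intervals, in both libraries. H2-T23 gave 1.30 and 1.29, H2-Q7 1.43 and 1.37, Tap1 1.80 and 1.53, and Psmb9 1.26 and 1.14. Psmb8 gave 1.13 (0.95 to 1.31) and 0.48 (0.26 to 0.69), which do not overlap. H2-T22, from 10 and 7 UMIs over 17 and 8, gave 3.43 (2.14 to 4.64) and 4.29 (2.59 to 5.95). Tapbp gave -0.02 (-0.38 to 0.31) and -0.19 (-0.54 to 0.14).

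**Figure D2:**
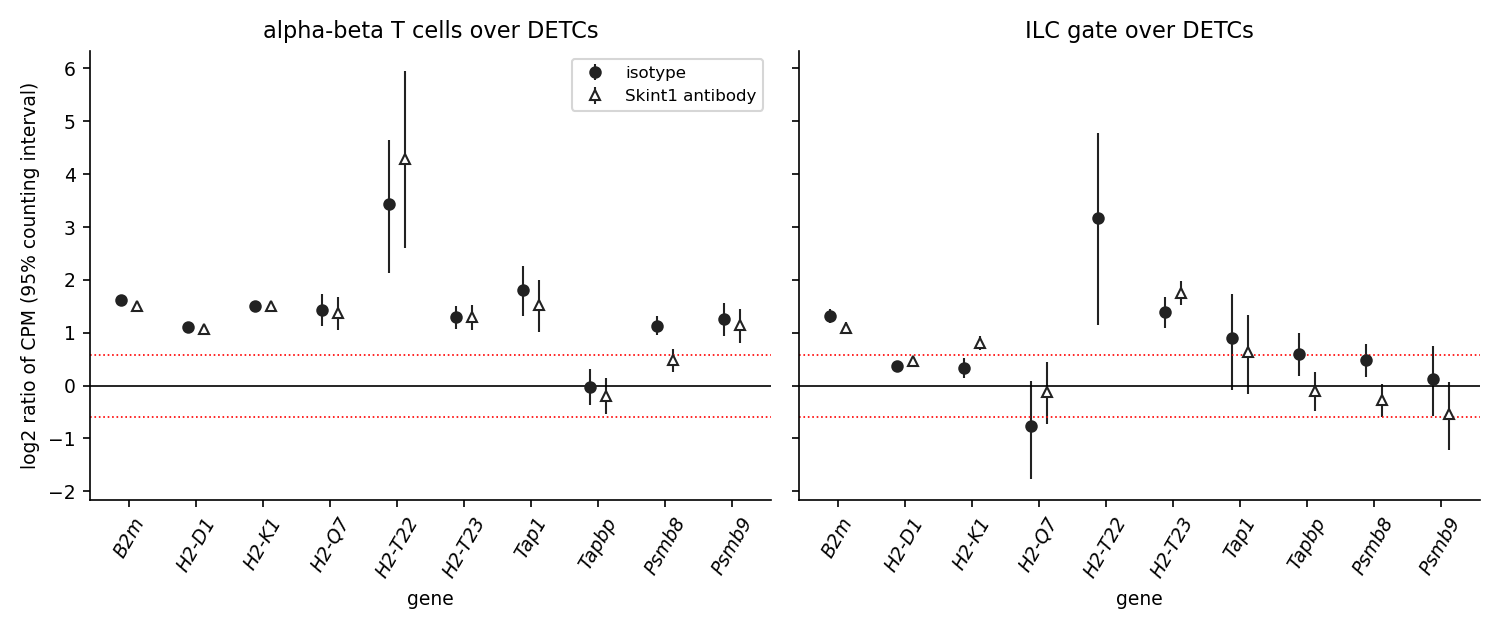
Log2 ratio of each gene in alpha-beta T cells (left) and the ILC gate (right) over DETCs of the same library, with 95% counting intervals, filled circles for isotype, open triangles for Skint1 antibody and dotted lines at 1.5-fold. On the left 9 of 10 genes lie above 0 in both libraries and Tapbp lies near 0, and on the right B2m and H2-T23 exceed 1.5-fold in both libraries.

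The gap was wider in a narrower set of alpha-beta T cells. Requiring at least 2 Trac UMIs and no Trdc, a gate added after the data were seen, left 102 and 77 cells and gave summed ratios of 1.45 and 1.55. Tapbp then had -0.35 (-0.91 to 0.17) and -1.04 (-1.88 to -0.32), so that it was the member lower in alpha-beta T cells in the Skint1 antibody library. Among alpha-beta T cells, those with Foxp3 UMIs (16 and 12 cells) had H2-D1 at 7533 (6861 to 8253) and 5399 (4662 to 6219) CPM. Those with Cd4 and no Foxp3 (44 and 44 cells) had 5535 (5175 to 5913) and 4702 (4390 to 5031), and those with Cd8a or Cd8b1 (25 and 17 cells) had 3428 (3091 to 3791) and 5196 (4676 to 5758). Each of these was above the DETC level of H2-D1 in its library. After Skint1 antibody their intervals overlapped, so no order among them could be read there.

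In the ILC gate over DETCs, the summed ratio was 0.59 (0.52 to 0.65) and 0.62 (0.57 to 0.67). B2m gave 1.32 (1.18 to 1.45) and 1.09 (0.97 to 1.21), and H2-T23 gave 1.39 (1.08 to 1.68) and 1.76 (1.52 to 1.99). These 2 genes were at least 1.5-fold higher in both libraries, out of 6 members that passed the filter in each. H2-K1 passed 1.5-fold after Skint1 antibody alone (0.81 against 0.34) and Tapbp after isotype alone (0.60 against -0.10), which made 3 of 6 in each library, against 15.6% and 14.6% of all genes, and 0 were lower, against 22.9% and 24.5%. H2-D1 was less far apart, at 0.37 (0.27 to 0.46) and 0.47 (0.39 to 0.54). H2-Q7 gave -0.76 (-1.77 to 0.09) and -0.11 (-0.72 to 0.44). Psmb8 gave 0.48 (0.16 to 0.79) and -0.27 (-0.58 to 0.03), Psmb9 0.12 (-0.58 to 0.74) and -0.55 (-1.23 to 0.06) and Tap1 0.90 (-0.08 to 1.73) and 0.64 (-0.16 to 1.34). H2-T22 gave 3.17 (1.14 to 4.79) from 4 UMIs after isotype. H2-T23 in both libraries and Tapbp after isotype were under 100 CPM in DETCs and passed the filter through their ILC level. The 3 of 6 thus rests in part on members read only because they were high in the ILC gate.

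These ILC values depended on the upper gene limit and on single barcodes. Without the limit of 2500 genes (134 and 220 cells) the summed ratio was 0.09 and 0.06, B2m gave 0.50 and 0.32, H2-T23 0.40 and 0.73 and Psmb8 -0.35 and -0.96. Without the 1 barcode highest in B2m, the isotype ratio of B2m was 1.07 (0.91 to 1.21), and the summed ratio 0.46. Without barcodes that held at least 3 keratinocyte or 3 class II and Langerhans UMIs, which left 69 and 108 cells, B2m gave 1.25 and 1.00 and H2-T23 gave 1.44 and 1.69.

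The ILC gate stood below alpha-beta T cells for the members summed, with log2 ratios of -0.66 (-0.74 to -0.59) and -0.56 (-0.62 to -0.50). H2-K1 gave -1.16 and -0.70, H2-Q7 -2.19 and -1.49, Psmb9 -1.14 and -1.69, Psmb8 -0.65 and -0.75 and H2-D1 -0.73 and -0.61. H2-T23 was the exception among heavy chains, at 0.09 (-0.27 to 0.45) and 0.46 (0.15 to 0.78). At least 1.5-fold lower were 3 of 6 and 3 of 5 members read, against 7.97% and 9.82% of all genes. Tapbp alone was 1.5-fold higher, in the isotype library, against 6.02% of genes there and 6.86% in the other. It was under 100 CPM in the alpha-beta T cells of that library and passed the filter through its ILC level.

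The make-up of the heavy chain pool was described as the share of each gene among the UMIs of 14 heavy chain genes of the H2 family. These shares and the rank of H2-D1 rest on counting H-2q reads against the H-2b reference, and how many reads of each gene were lost or assigned elsewhere was not tested. H2-D1 made up 71.4% (71.0 to 71.8) and 71.6% (71.2 to 72.0) of it in DETCs, 67.2% (65.9 to 68.5) and 66.8% (65.4 to 68.2) in alpha-beta T cells, and 71.0% (68.5 to 73.4) and 65.5% (63.5 to 67.4) in the ILC gate. H2-K1 made up 18.4% and 19.0% in DETCs and 22.9% and 23.9% in alpha-beta T cells, and these did not overlap between the classes. H2-T23 held 3.64% (3.46 to 3.83) and 3.21% (3.05 to 3.38) of the pool in DETCs, against 7.36% (6.02 to 8.89) and 7.17% (6.18 to 8.27) in the ILC gate. B2m UMIs per 100 heavy chain UMIs were 18.0 and 18.5 in DETCs, 24.3 and 23.4 in alpha-beta T cells and 34.6 and 26.1 in the ILC gate. Among the other heavy chains, H2-T3, which encodes the thymus leukemia antigen bound by CD8αα, had 459 and 497 UMIs in DETCs (1.16% and 1.09% of the pool), 8 and 5 in alpha-beta T cells and 0 in the ILC gate. In CPM this was 31.3 and 26.6 in DETCs against 9.99 and 5.98 in alpha-beta T cells, the opposite order to the member heavy chains.

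The balance between inducible and constitutive proteasome subunits was given as the share of each inducible subunit among the UMIs of its pair. Psmb8 (against Psmb5) made up 52.2% (50.7 to 53.7) and 54.6% (53.3 to 55.9) in DETCs and 73.3% (68.6 to 77.7) and 70.8% (65.0 to 76.0) in alpha-beta T cells. In the ILC gate it was 66.4% (57.6 to 74.4) after isotype and 50.3% (42.8 to 57.7) after Skint1 antibody. Psmb9 (against Psmb6) made up 27.6% (26.0 to 29.4) and 27.1% (25.6 to 28.6) in DETCs, 53.9% (46.3 to 61.3) and 43.3% (36.4 to 50.3) in alpha-beta T cells, and 31.8% (20.9 to 44.4) and 18.5% (12 to 26.6) in the ILC gate. Both inducible members thus had a lower share in DETCs than in alpha-beta T cells. Psmb10, the other inducible subunit and not one of the 10, had the opposite order, at 43.0% and 42.5% in DETCs and 31.7% and 31.8% in alpha-beta T cells, with intervals that overlapped in each library.

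**Figure D3:**
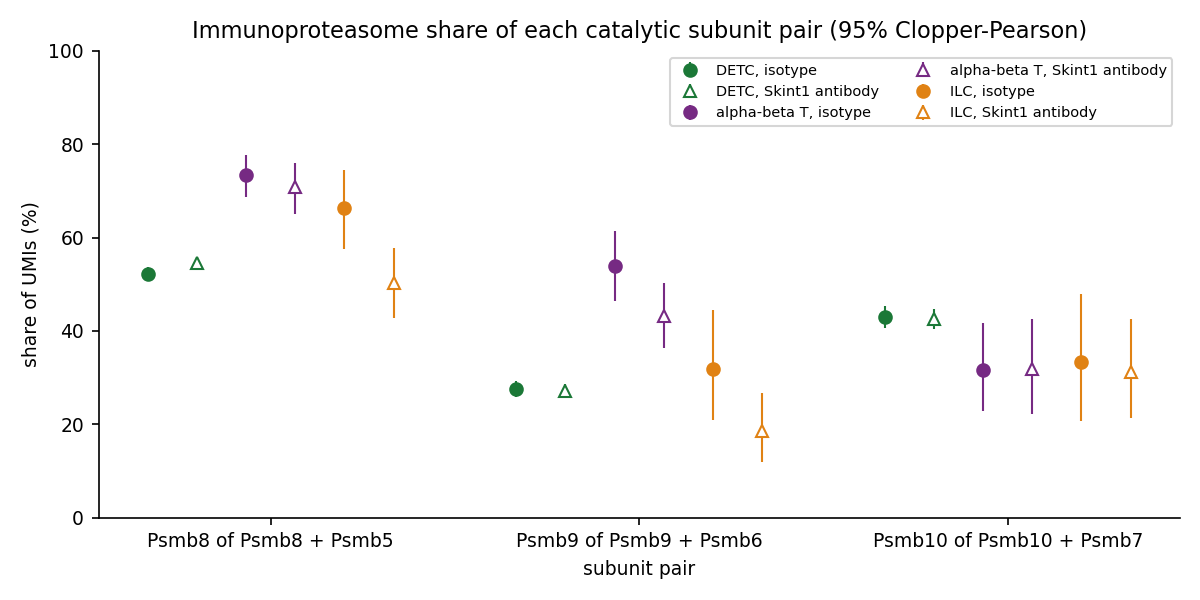
Share (%) of each inducible subunit among the UMIs of its pair, Psmb8 with Psmb5, Psmb9 with Psmb6 and Psmb10 with Psmb7, by class and library with 95% Clopper-Pearson intervals. Psmb8 and Psmb9 lie higher in alpha-beta T cells than in DETCs in both libraries, and Psmb10 does not.

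Of 9 further genes of peptide processing and loading, 5 passed the filter, and 0 of 5 were 1.5-fold different in alpha-beta T cells over DETCs in either library (median -0.09 and -0.03). The 3 most abundant were Pdia3, Calr and Psme1, with ratios of -0.07 and -0.05, -0.09 and -0.03, and -0.16 and 0.05. The 14 core proteasome subunits had 11 genes past the filter and 0 of 11 past 1.5-fold in both libraries, with medians of 0.07 and 0.10, and their most abundant, Psmb1, Psma7 and Psmb3, lay between -0.47 and 0.12. The 13 further heavy chain and class I-like genes measured had 0 past the filter there. Of the 3 most abundant, H2-Q4 stood at 42.8 and 32.1 CPM in DETCs and 117 and 108 in alpha-beta T cells, and H2-M3 at 36.1 and 33.7 and at 47.5 and 45.4. Fcgrt, the neonatal Fc receptor, had the opposite order, at 86.1 and 91.9 CPM in DETCs and 22.5 and 12 in alpha-beta T cells.

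Among 18 regulators, Ifngr1, a chain of the interferon-γ receptor, was higher in alpha-beta T cells by 1.78 and 1.63, with 51.5 and 49.6 CPM in DETCs. Ifngr2, the other chain, was under the filter and went the other way, at -2.23 (-3.14 to -1.45) and -1.39 (-2.05 to -0.80), with 76.0 and 71.9 CPM in DETCs. Jak1, a kinase of the same receptor, was lower as well, at -1.14 and -1.18. Nfkb1, an NF-κB subunit, had 160 and 135 CPM in DETCs and 175 and 191 in alpha-beta T cells, and Socs1, an inhibitor of cytokine signalling, 166 and 183 and 129 and 137. Irf1, which binds class I promoters, had 78.0 and 74.6 CPM in DETCs and 124 and 102 in alpha-beta T cells. Nlrc5, the class I transactivator, was barely detected, with 7 and 12 UMIs in DETCs (0.477 and 0.642 CPM) and 7 and 4 in alpha-beta T cells (8.74 and 4.78 CPM). Of 16 interferon-stimulated genes, 3 and 2 were read. Bst2 was lower in alpha-beta T cells in both libraries, at -1.70 and -2.05. Ifi27l2a, read after isotype only, went the other way, with 222 and 105 CPM in alpha-beta T cells against 0.614 and 0.321 in DETCs. Cxcl10 gave 0.72 and 0.09. Under the filter and opposite to Bst2, Gbp7 gave 1.75 (1.30 to 2.17) and 1.21 (0.70 to 1.68). Gbp2, from 11 and 7 UMIs over 30 and 22, gave 2.75 (1.60 to 3.78) and 2.83 (1.36 to 4.11), so the list did not go one way. Klrd1 (CD94), a chain of the receptors for Qa-1, and Klrk1 (NKG2D), which binds stress-induced class I-like ligands, were the 2 of 11 receptor genes that passed the filter. Klrd1 gave -1.98 and -1.73 and Klrk1 -1.25 and -1.04, so both were lower in alpha-beta T cells. Klrc1 and Klrc2, which encode NKG2 partner chains of CD94, were under the filter and higher in alpha-beta T cells, at 1.28 (0.40 to 2.06) and 1.29 (0.45 to 2.04) and at 2.0 (1.33 to 2.62) and 0.98 (0.07 to 1.77). Cd160, another class I receptor, had 133 and 126 CPM in DETCs and 22.5 and 33.5 in alpha-beta T cells.

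In the ILC gate over DETCs, the further genes of processing and loading had 0 and 1 of 5 read past 1.5-fold, and the core proteasome 1 of 12 and 0 of 11, each in 1 library only. Among regulators Jak1 gave -1.39 and -1.69, Socs1 -1.04 and -0.71 and Ifnar1, a chain of the type I interferon receptor, -0.90 and -1.01. Klrd1 gave -6.37 and -5.66, Klrk1 -2.00 and -1.74 and Bst2 -3.19 and -4.47. Nfkb1 was higher in the ILC gate, at 0.66 (0.35 to 0.95) and 0.53 (0.26 to 0.78), the first past 1.5-fold. The class II genes Cd74, H2-Ab1 and H2-Aa, from 763 and 1060, 256 and 387, and 212 and 279 CPM there, were at least 5.17 log2 units above DETCs, as the class II UMIs given above imply.

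The treatment comparison asked how the members stood after Skint1 antibody against isotype. In DETCs the members lay close together between the libraries. The 10 genes summed gave a log2 ratio of -0.13 (-0.14 to -0.11), with a median over all genes of -0.02. Of the 5 members with at least 100 CPM, 0 were 1.2-fold higher or lower, against 0.488% and 3.14% of all genes. H2-D1 gave -0.15 (-0.18 to -0.13), B2m -0.12 (-0.16 to -0.07) and H2-K1 -0.11 (-0.16 to -0.07), 3 genes whose intervals overlapped. Tapbp was higher at 0.10 (0.01 to 0.20), and Psmb8 gave 0.05 (-0.03 to 0.13). Among members under 100 CPM, H2-T23 had the widest gap that was well counted, 1446 UMIs after isotype and 1460 after Skint1 antibody in a larger total, which gave -0.34 (-0.44 to -0.23), a 1.26-fold lower level. H2-Q7 gave -0.14, Psmb9 -0.05 and Tap1 -0.02, each with an interval that held 0. With at most 5% mitochondrial UMIs Psmb8 turned to -0.0332, Psmb9 to 0.0572 and Tap1 to 0.0223, whereas the other 7 members kept their direction under all 10 alternatives. H2-T22, from 8 over 17 UMIs, gave -1.44 (-2.86 to -0.15).

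**Figure D4:**
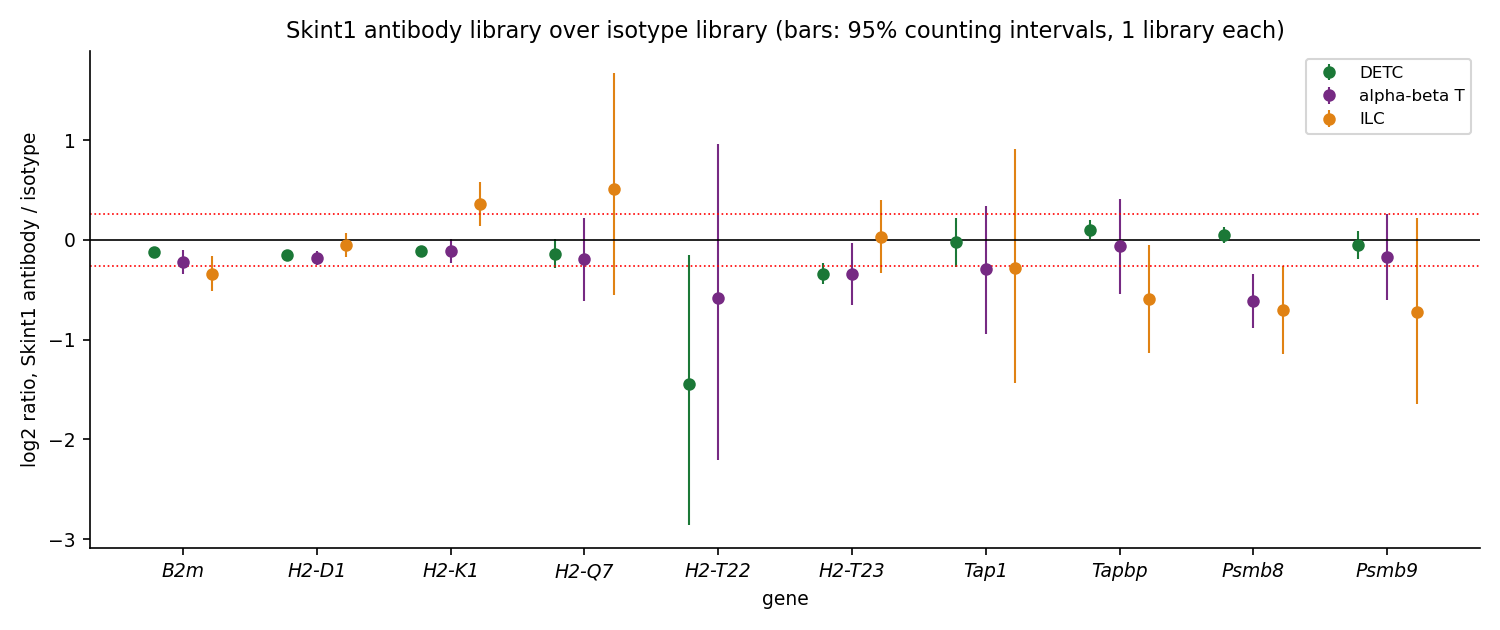
Log2 ratio of each gene, Skint1 antibody over isotype, by class, with 95% counting intervals and dotted lines at 1.2-fold (H2-T22 is not drawn for the ILC gate, where 1 library had no UMI). DETC points lie between the dotted lines except H2-T23 at -0.34 and H2-T22, and in the ILC gate H2-K1 lies at 0.36 while B2m, Tapbp and Psmb8 lie at -0.34 or lower.

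The same comparison was made within DETCs of like immediate early level, a split added after the data were seen. In the group highest in these genes (897 and 1199 cells), H2-D1 gave -0.10 (-0.16 to -0.04), B2m -0.10, H2-K1 -0.02 (-0.14 to 0.10) and H2-T23 -0.34 (-0.64 to -0.05). In the lowest group (885 and 1326 cells) H2-D1 gave -0.16 (-0.23 to -0.09), B2m -0.09, H2-K1 -0.26 (-0.41 to -0.11) and H2-T23 -0.32 (-0.62 to -0.01). The intervals of H2-K1 overlapped between the groups, whose difference was not tested, and 0 of the members read passed 1.2-fold in either group. Of all genes 2.58% were higher and 6.94% lower in the top group, and 1.83% and 5.57% in the lowest one.

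In alpha-beta T cells all 10 ratios were below 0, though 7 of them turned above 0 under at least 1 alternative (H2-D1, H2-K1, H2-Q7, H2-T22, H2-T23, Tap1 and Tapbp), and the summed ratio was -0.20 (-0.25 to -0.14). Psmb8 gave -0.61 (-0.88 to -0.34) and H2-T23 -0.34 (-0.65 to -0.03), so that 2 of 7 members read were at least 1.2-fold lower, against 13% of all genes, and 0 were higher, against 7.94%. With the narrower alpha-beta T gate the summed ratio was -0.02 and H2-T23 gave 0.03 (-0.41 to 0.47), whereas Psmb8 gave -0.58 (-0.98 to -0.19). B2m, Psmb8 and Psmb9 were below 0 under both gates and under all 10 alternatives, with Psmb8 between -0.63 and -0.40, B2m between -0.24 and -0.0575 and Psmb9 between -0.17 and -0.00648. Under the narrower gate the interval of B2m (-0.22 to 0.11) held 0.

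In the ILC gate the summed ratio was -0.09 (-0.18 to -0.01), and 0.01 (-0.07 to 0.10) without the barcode highest in B2m of each library. H2-K1 was 1.28-fold higher at 0.36 (0.14 to 0.58), and Psmb8 -0.70 (-1.14 to -0.26), Tapbp -0.59 (-1.13 to -0.05) and B2m -0.34 (-0.51 to -0.16) were lower, which made 1 and 3 of 6 members read, against 12.6% and 22% of all genes. Without the barcodes that held keratinocyte or class II UMIs, H2-K1 gave 0.25 (-0.02 to 0.52). Without the barcode highest in B2m, B2m gave -0.11 (-0.30 to 0.08). Keratinocyte genes, at 431 and 3999 CPM, differed between these gates too.

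Of the 9 processing and loading genes 0 of 5 read passed 1.2-fold (median 0.02), of 14 core proteasome genes 0 of 11 (median -0.05), of 18 regulators 0 of 4 (median -0.09), and of 11 class I receptors 0 of 3 (median -0.08). The 2 interferon-stimulated genes that could be read in DETCs were Bst2 and Cxcl10. Both were at least 1.2-fold higher after Skint1 antibody, at 0.27 and 0.41, against 0.488% of all genes. Bst2 stood at 333 and 402 CPM and Cxcl10 at 97.5 and 130 CPM. Under the filter, Isg15 gave -0.18 (-0.34 to -0.01) and Isg20 -0.52 (-1.04 to -0.01), the latter from 63 over 71 UMIs. Ifit1 gave -1.35 (-2.69 to -0.12) from 9 over 18 UMIs, so the list did not move one way. The class II list of 6 genes and the 13 further heavy chain genes had 0 read. Among the latter, H2-Q4 gave -0.41 (-0.58 to -0.25) from 601 over 627 UMIs, a wider gap than that of H2-T23, with overlapping intervals.

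Variation among single DETCs was measured after each cell with at least 2000 UMIs was thinned to 2000, which left out 134 and 202 of the DETCs. At that depth 93.3% (92.4 to 94.1) and 93.4% (92.7 to 94.1) of DETCs had an H2-D1 UMI, 57.3% (55.7 to 59.0) and 56.9% (55.5 to 58.4) a B2m UMI, and 53.8% and 52.1% an H2-K1 UMI. Psmb8 was seen in 26.5% and 28.0%, Tapbp in 18.0% and 17.9%, H2-T23 in 17.6% and 14.5%, Psmb9 in 9.44% and 8.81%, H2-Q7 in 8.18% and 7.67%, Tap1 in 3.31% and 3.20% and H2-T22 in 0.235% and 0.0211%. Without thinning, H2-D1 was seen in 98.4% and 98.3% and B2m in 78.3% and 75%. In alpha-beta T cells at the same depth, 90% (84.8 to 93.9) and 87.8% (82.3 to 92.0) had a B2m UMI, and in the ILC gate 74.0% (62.8 to 83.4) and 74.3% (66.1 to 81.4).

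Spread between DETCs was first given as variance over mean, a measure that rises with abundance. For H2-D1, the most abundant member, it was 2.71 and 2.31 at 2000 UMIs, where pure counting gives 1, and H2-K1 had 1.98 and 1.69. B2m and H2-Q7 lay at 1.32 and 1.23, and 1.31 and 1.22. Psmb8, Tapbp, Tap1 and Psmb9 lay between 1.01 and 1.07, so that their spread was close to that of counting at these low levels. With the excess over 1 divided by the mean UMIs, which takes abundance into account, H2-Q7 gave 3.19 and 2.48, H2-K1 0.967 and 0.727 and H2-D1 0.432 and 0.370, so that H2-D1 no longer stood first. Tap1, from few UMIs, gave 1.5 and 0.191. The 10 genes summed had a median of 6 and 5 UMIs per DETC (5th to 95th percentile 1 to 16 and 2 to 14), against 15 and 14 per alpha-beta T cell and 8 in each ILC gate. The ranges of the classes overlapped, and the highest DETC held 47 and 52 UMIs.

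To see which members varied together, thinned DETCs were split by their own H2-D1 UMIs, a split also added after the data were seen. The top group (5 or more UMIs, 1091 and 1267 cells) was set against the bottom group (2 or fewer, 1288 and 1983 cells). H2-K1 was higher in it by 1.30 (1.18 to 1.42) and 1.15 (1.05 to 1.26), H2-Q7 by 1.04 (0.65 to 1.42) and 0.97 (0.64 to 1.31), and B2m by 0.83 (0.72 to 0.95) and 0.73 (0.63 to 0.83). H2-T23 gave 0.88 and 0.26, Tapbp 0.26 and 0.41, Psmb8 0.43 and 0.05, Psmb9 0.23 and 0.29 and Tap1 0.37 and 0.40. The ratios of H2-K1, H2-Q7 and B2m exceeded those of the proteasome subunits in both libraries. Besides H2-D1 itself, which the split fixed, 5 of 5 and 3 of 4 members read were at least 1.2-fold higher, against 7.41% and 6.02% of all genes, and 0 were lower, against 2.67% and 1.13%. Reads that could belong to more than 1 heavy chain gene may add to this, and their part was not tested.

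Immediate early genes (Fos, Fosb, Jun, Junb, Egr1, Ier2 and Nr4a1) mark recent stimulation, and dissociation of tissue also raises them. Thinned DETCs with most UMIs of this list (897 and 1199 cells, at least 22 and 23 UMIs) were set against those with fewest (885 and 1326 cells, at most 4). H2-K1 was higher by 0.62 (0.48 to 0.76) and 0.86 (0.73 to 0.98), H2-Q7 by 0.92 (0.42 to 1.44) and 0.82 (0.41 to 1.25), and H2-D1 by 0.24 (0.17 to 0.31) and 0.30 (0.24 to 0.36). Psmb8 was lower, by -0.44 (-0.68 to -0.19) and -0.51 (-0.72 to -0.31), as was Psmb9, by -0.55 (-0.99 to -0.13) and -0.62 (-1.0 to -0.24). B2m lay at -0.05 and -0.06 and H2-T23 at 0.14 and 0.11, with intervals that held 0. The heavy chains H2-K1, H2-Q7 and H2-D1 thus went one way across this split, and both inducible proteasome subunits the other, in both libraries. Intervals lay below 0 for 2 members in the isotype library and for 3 in the Skint1 antibody library, where Tapbp joined these subunits. All genes tested had a median of -0.16 in each library, below 0 and above the ratios of Psmb8 and Psmb9. Of 4 members read in each library, 1 and 2 were at least 1.2-fold higher, against 18.7% and 19.9% of genes, and 1 and 1 lower, against 35.1% and 37.6%.

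**Figure D5:**
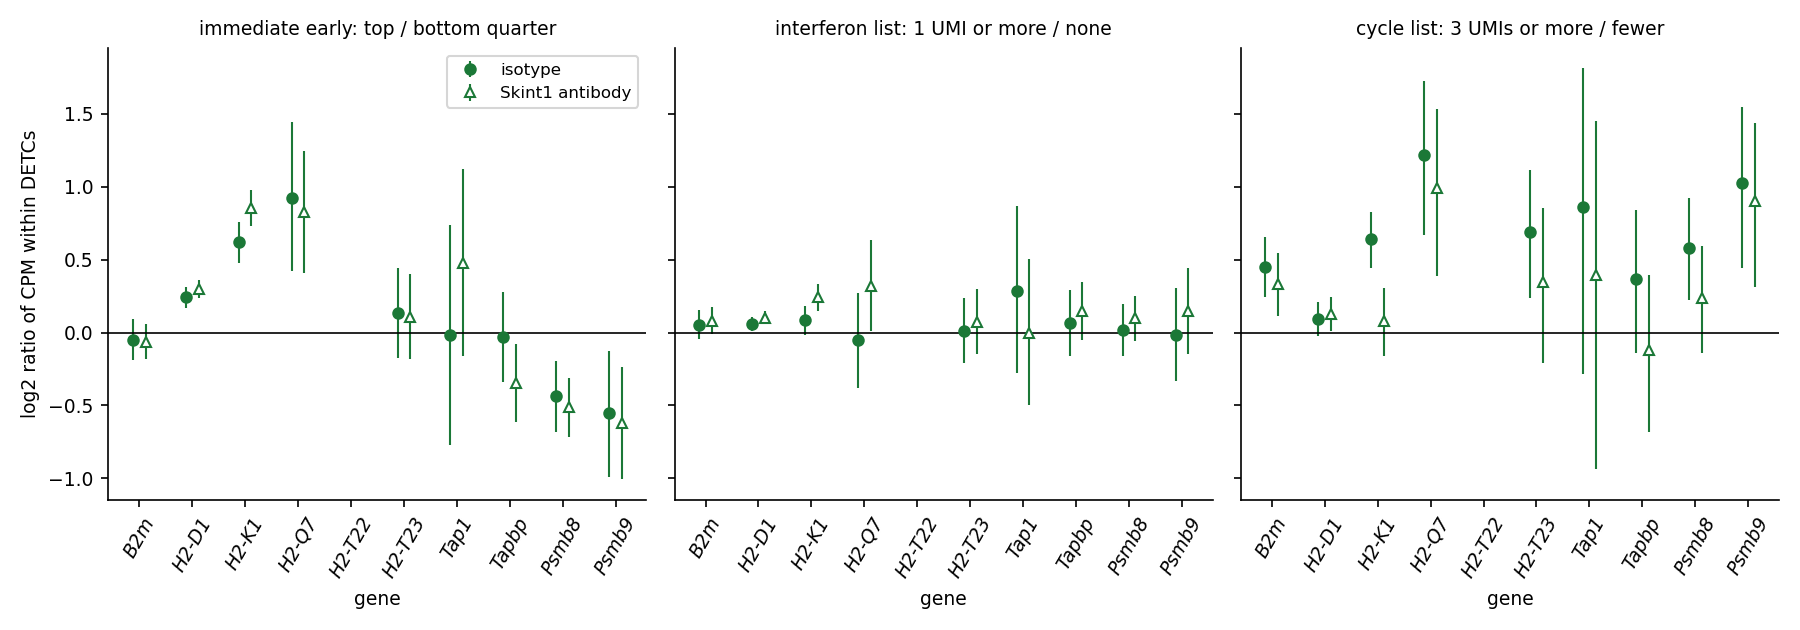
Log2 ratio of each gene between DETC subsets of the same library, by immediate early genes (left), the interferon-stimulated list (middle) and the cycle list (right), with 95% counting intervals, filled circles for isotype and open triangles for Skint1 antibody (H2-T22 had at most 3 UMIs on 1 side of each split and is not drawn). H2-K1 and H2-Q7 lie above 0 and Psmb8 and Psmb9 below 0 on the left, ratios in the middle stay within 0.32 of 0, and H2-Q7 and Psmb9 are highest on the right.

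DETCs were also split by the interferon-stimulated list. Cells with at least 1 UMI of that list (2027 and 3122 cells) over those with none (1383 and 1621) gave a summed ratio of 0.06 (0.02 to 0.09) and 0.12 (0.09 to 0.16). H2-K1 gave 0.08 (-0.02 to 0.18) and 0.24 (0.15 to 0.33), and B2m 0.05 and 0.08. Of 5 members read 0 passed 1.2-fold in either library, where 0.617% and 0.212% of genes were higher and 0.549% and 0.283% lower. Bst2 and Cxcl10 were the most abundant genes of the list in DETCs, and 1 UMI separates cells coarsely at this depth.

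Cycling DETCs were few. The 56 and 54 cells with at least 3 UMIs of Mki67, Top2a, Birc5, Cdk1, Ccnb2 and Ube2c had Psmb9 at 100.4 and 89.6 CPM against 49.4 and 48.0 in the rest, a log2 ratio of 1.02 (0.44 to 1.55) and 0.90 (0.31 to 1.43). H2-Q7 gave 1.22 (0.67 to 1.72) and 0.99 (0.39 to 1.53), and B2m 0.45 (0.24 to 0.66) and 0.33 (0.11 to 0.55). H2-D1, the most abundant member, gave 0.10 (-0.02 to 0.21) and 0.13 (0.01 to 0.25). H2-K1 was higher in the isotype library alone, at 0.64 (0.44 to 0.83) against 0.08 (-0.16 to 0.31). Of members read, 5 of 6 and 1 of 4 were 1.2-fold higher, against 32.3% and 34.2% of genes, and 0 were lower, against 25.7% and 27.5%. These cells were not thinned, and the ratios are of CPM.

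DETCs also differed by their total UMIs. Those with most (at least 4917 and 4402) over those with fewest (at most 3245 and 2942) had H2-D1 at -0.22 (-0.27 to -0.17) and -0.19 (-0.24 to -0.15), H2-K1 at -0.17 and -0.20 and Psmb8 at 0.43 (0.25 to 0.62) and 0.23 (0.07 to 0.38). H2-Q7 gave 0.00 and 0.47 (0.16 to 0.80) and H2-T23 0.00 and -0.28 (-0.50 to -0.06). H2-D1 and H2-K1 were thus lower, and Psmb8 higher, in the deeper cells of both libraries, where 18.7% and 18.1% of genes were 1.2-fold higher and 21.6% and 21.7% lower. Of members read, 1 of 4 and 0 of 5 were higher and 0 were lower. Depth per DETC was lower in the Skint1 antibody library, and its part in the treatment ratios was not tested.

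The genes whose level over the 6 sums of class and library was most like the mean log2 level of the members were Nol7, S100a13, Gapdh, Arhgdib and Aes, with Pearson r of 0.988, 0.986, 0.985, 0.984 and 0.983 among 1292 genes ranked. This describes 6 points that share 2 libraries, and H2-T22 was left out of the mean since it had no UMI in 1 sum. Gapdh, a glycolytic enzyme, had 528 and 511 CPM in DETCs, 1037 and 998 in alpha-beta T cells and 757 and 711 in the ILC gate, the same order of classes as B2m, H2-D1 and H2-K1.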

How the data were processed

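Live CD45+EpCAM-MHC-II- epidermal cells were profiled with 10x 3′ v3 chemistry in 2 libraries, 1 per treatment. The deposited matrices hold unnormalized counts of UMIs for 31053 genes in every barcode, without a cell filter. The authors made them with CellRanger 3.0.2 against mm10 (GRCm38). Library totals were 27272211 and 32450957 counts.

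Counts were summed per class and library and divided by the class total (CPM). A gene was read in a comparison when its mean over both sides was at least 100 CPM, and past the fold at 1.5 between classes or 1.2 between treatments and DETC subsets. Cells were thinned to 2000 UMIs without replacement. Intervals are at 95% and cover counting error only. No doublet caller was run, and the 2500-gene limit and the gates stood in for it. Python 3.11.15, numpy 2.4.6, scipy 1.17.1 and pandas 2.3.3 were used.

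The members, gates, lists and splits were chosen with earlier results of these data known. All 10 members are named. Genes of other lists are named when they are among the 3 most abundant or past the fold in both libraries or, between treatments, in DETCs. Irf1, Nlrc5, Ifngr2, Klrc1, Klrc2, Gbp2, Gbp7, Isg15, Isg20, Ifit1, H2-T3 and H2-M2 were chosen after their values were seen. H2-T10 and H2-Bl, listed among the further heavy chains, were not analysed here. Alternatives were tried for the cell limits, the gates, the total used for scaling, the low-value filter, the weighting of cells and the thinning depth.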

Additional observations from a re-analysis of the deposited data

Results flagged for a closer look

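H2-K1, a classical class I heavy chain, pointed in opposite directions in the ILC gate and in DETCs. Its log2 ratio of Skint1 antibody over isotype was 0.36 in the ILC gate and -0.11 in DETCs. The ILC value ranged from 0.0856 to 0.47 over 10 alternatives, the lowest without the upper gene limit, and was 0.25 (-0.02 to 0.52) without barcodes that held keratinocyte or class II UMIs. Tapbp, which encodes tapasin, did the reverse, with -0.59 in the ILC gate and 0.10 in DETCs. Each ratio came from 1 library per treatment, and neither difference between the classes was tested. Keratinocyte genes stood at 431 and 3999 CPM in the 2 ILC gates, and 1 barcode held 17.8% of the isotype B2m UMIs there.

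Barcodes of 1 to 100 UMIs, which no comparison used as cells, held the 10 members at a summed level of 2509 CPM after isotype and 2415 CPM after Skint1 antibody. H2-D1 made the largest part among the members, at 1227 and 1217 CPM. H2-T22 was higher there, at 5.93 and 3.66 CPM, than in DETCs, at 1.16 and 0.428 CPM.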

How the results depend on the processing

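No paired analysis was possible because each treatment had 1 library, so that the groups shared fewer than 2 replicate numbers. With 1 library per treatment no alternative leaves out a replicate. Counting error was the one error that could be given, and it limits H2-T22 and Tap1 in all classes and every member in the ILC gate. The narrower gates and the removal of the barcode highest in B2m were chosen after the data were seen. Of the recomputed values that answer a comparison, 237 moved by less than their interval or count margin, 78 moved by more, and 1 whose interval excluded 0 changed sign. Of single-gene values 1031 moved by less and 229 by more, and 17 whose interval excluded 0 changed sign. Changes of sign in values whose interval held 0 are not among these 17. Causes were not tested, except that settings with fewer or more genes or cells do so by construction.

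Between treatments, the summed log2 ratio in DETCs was -0.11 without ribosomal protein and mitochondrial genes in the total and -0.10 when centred on the median gene. In alpha-beta T cells it was -0.071 with at most 5% mitochondrial UMIs, -0.11 without the upper gene limit and -0.0208 with the narrower gates, where H2-D1 and H2-T23 turned to 0.015 and 0.0321. In the ILC gate it was -0.23 with at most 5% mitochondrial UMIs and 0.0115 without the barcode highest in B2m. Members past 1.2-fold numbered 1 in DETCs at a filter of 50 CPM, and 2 in DETCs, 4 in alpha-beta T cells and 7 in the ILC gate without a filter. They numbered 1 in alpha-beta T cells with at most 5% mitochondrial UMIs or with the narrower gates, and 2 in the ILC gate without the upper gene limit.

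For alpha-beta T cells over DETCs, the summed ratios in the isotype and Skint1 antibody libraries were 1.43 and 1.5 with at most 5% mitochondrial UMIs, 1.38 and 1.32 with the reduced total, 1.34 and 1.27 when centred, 1.38 and 1.29 as means of each cell's own CPM, and 1.45 and 1.55 with the narrower gates. The isotype ratio was 1.17 without the upper gene limit. Members past 1.5-fold numbered 9 and 8 without a filter.

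For the ILC gate over DETCs, the summed ratios were 0.85 and 0.76 with at most 5% mitochondrial UMIs, 0.78 and 0.81 with the reduced total, and 0.0884 and 0.0597 without the upper gene limit, where H2-D1 turned to -0.0743 and -0.0997 and, in the isotype library, Tapbp to -0.38 and Psmb8 to -0.35. Members past 1.5-fold then numbered 0 in the isotype and 2 in the Skint1 antibody library. The isotype ratio was 0.46 without the barcode highest in B2m, and 6 isotype members passed without a filter.

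For the ILC gate over alpha-beta T cells, the summed ratios were -0.58 and -0.74 with at most 5% mitochondrial UMIs, -1.08 and -1.12 without the upper gene limit and -0.87 and -0.98 with the narrower gates. They were -0.77 in the isotype library without the barcode highest in B2m and -0.63 in the other as means of each cell's own CPM. Members past 1.5-fold numbered 7 and 6 without a filter, and 5 in the Skint1 antibody library at 50 CPM or at 5% mitochondrial UMIs. At 5% mitochondrial UMIs B2m turned to 0.25 (isotype) and Tap1 to 0.00547 (Skint1 antibody). Without the upper gene limit Tapbp turned to -0.49 (isotype) and H2-T23 to -0.45 (Skint1 antibody), and with the narrower gates H2-T23 turned to -0.034 in the Skint1 antibody library.

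At 5% mitochondrial UMIs the Psmb8 share was 53.9% in isotype DETCs, 82.4% in the isotype ILC gate and 78.8% in Skint1 antibody alpha-beta T cells, the Psmb9 share was 25.2%, 44.4% and 51.8% there, and the H2-D1 share was 72.0% in isotype DETCs and 60.6% in the Skint1 antibody ILC gate. Without the upper gene limit the H2-D1 share was 70.9% and 71.0% in DETCs and 66.5% and 62.8% in the ILC gate, and the Psmb8 share there was 40.3% and 31.4%. Without keratinocyte or class II barcodes the H2-D1 share was 69.4% in the Skint1 antibody ILC gate.

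Among DETC subsets at 5% mitochondrial UMIs, the summed ratio was 0.16 for the interferon split (isotype), and 0.32 for the immediate early and 0.30 for the cycle split (Skint1 antibody). B2m turned to -0.0613 in the split by total UMIs (isotype), and in the Skint1 antibody library Tapbp turned to 0.20 in the immediate early split, and H2-Q7 to -0.25 in the interferon split and -0.12 in the split by total UMIs. Thinned to 3000 UMIs, the interferon split gave summed ratios of 0.0042 and 0.0405, with H2-D1 at -0.0584 (isotype) and H2-Q7 at -0.17 (Skint1 antibody), and thinned to 1000 UMIs 0.0809 in the Skint1 antibody library. Cells with a B2m UMI made up 71.2% and 69.6% of DETCs and 94.4% and 88.1% of the ILC gate at 3000 UMIs, and 36.1% and 34.4% of DETCs, 74.0% and 67.5% of alpha-beta T cells and 62.2% and 56.1% of the ILC gate at 1000.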

Other observations

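Cells of more than 2500 genes that passed the DETC gate (312 and 287 cells) were left out of the classes and had B2m at 481 and 449 CPM, H2-D1 at 1689 and 1515, H2-T23 at 124 and 118 and Psmb9 at 77.2 and 77.5. Their B2m level was close to that of the DETCs kept, whereas Psmb9 and H2-T23 were higher and H2-D1 lower, with no test between them.

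Among heavy chain genes outside the 10 members, H2-M2 had 15.7 and 68.2 CPM in the ILC gate (6 and 45 UMIs) and 0 and 1 UMI in DETCs, in a gate that also held keratinocyte, class II and Langerhans UMIs. This gene was chosen after its values were seen.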
